A study of Mus musculus with 12 samples.

Results

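Ppy, Pyy and Npy encode the pancreatic polypeptide family, and Npy1r encodes a receptor for peptides of this family; these 4 genes were taken by symbol from the 23366 rows of 1 gene count table. RNA of pancreatic islets from C57BL/6 mice was sequenced in 12 libraries. The 6 knockout (KO) libraries carry the genotype miR-17-92/106 KO and the 6 control libraries the genotype miR-17-92/106 Control, and both groups share the C57BL/6 strain. By the series title, the KO lacks microRNA clusters called miR-17-92 and miR-106b, and the design compares islets with and without them. The labels do not say which cells lack the clusters, what drives the deletion, the age of the mice, or whether the libraries are separate animals. The p-values below therefore measure the spread between these libraries, which may be technical.

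Pancreatic polypeptide, the product of Ppy, is the hormone of the PP cells (also called gamma or F cells), a minor endocrine cell type of the islet. Peptide YY, from Pyy, is best known as a hormone of the gut that lowers appetite, and mouse islets also make it. Neuropeptide Y, from Npy, is a transmitter of the brain and of sympathetic nerves and is made in islet cells of the fetus. All of these peptides act through receptors of the Y family, which couple to inhibitory G proteins. In islets, the action of neuropeptide Y and peptide YY on beta cells is known to restrain insulin release.

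MicroRNAs lower their target transcripts by pairing of the seed, bases 2 to 8, with sites that lie mostly in the 3′ UTR. For the 2 clusters, 9 mature microRNAs with 4 seeds were taken, 1 strand of each precursor, and the opposite strands were not searched. For each seed, 1 sequence is shown to give the letters that were searched for in the 4 transcripts. Sequences are from RefSeq, 5′ to 3′, with the seed in capitals. The seed of miR-17-5p is shared by miR-20a-5p, miR-93-5p and miR-106b-5p, that of miR-19a-3p by miR-19b-3p, and that of miR-92a-3p by miR-25-3p.
miR-17-5p: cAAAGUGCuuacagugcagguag
miR-18a-5p: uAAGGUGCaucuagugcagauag
miR-19a-3p: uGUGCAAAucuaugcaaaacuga
miR-92a-3p: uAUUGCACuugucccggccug

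The sites complementary to these seeds, read on the transcript's strand, are GCACTTT for miR-17-5p, GCACCTT for miR-18a-5p, TTTGCAC for miR-19a-3p and GTGCAAT for miR-92a-3p. None of the 4 occurred in the longest 3′ UTR of Ppy, Pyy, Npy or Npy1r in the GENCODE annotation of GRCm38. The 3′ UTRs of the hormone genes are short, with 143 bases for Ppy, 166 for Pyy and 180 for Npy. Over the same lengths of other 3′ UTRs, each site occurred in 0.512% to 1.999% of genes. The 3′ UTR of Npy1r has 1604 bases, and over that length the 4 sites occurred in 15.01%, 9.64%, 14.93% and 6.79% of genes. These are statements about letters in a window and not about binding.

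Ppy and Pyy lie next to each other on chromosome 11, on the minus strand, with no annotated gene between them. Npy lies on chromosome 6, and Npy1r on chromosome 8 next to Npy5r, the gene of another Y receptor. The 250 bases before the start of Ppy and Pyy are shown because the counts of these neighbours varied together across libraries. They were read from the RefSeq promoter table of GRCm38.p6, on the minus strand and 5′ to 3′, with TATAA and CANNTG (the E-box, a site for basic helix-loop-helix factors) in capitals.
Ppy, chr11:102101320-102101569: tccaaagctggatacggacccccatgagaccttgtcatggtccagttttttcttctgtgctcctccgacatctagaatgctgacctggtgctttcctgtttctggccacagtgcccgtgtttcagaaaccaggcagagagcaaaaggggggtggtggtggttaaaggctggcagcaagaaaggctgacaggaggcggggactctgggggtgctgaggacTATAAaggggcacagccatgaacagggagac
Pyy, chr11:102107833-102108082: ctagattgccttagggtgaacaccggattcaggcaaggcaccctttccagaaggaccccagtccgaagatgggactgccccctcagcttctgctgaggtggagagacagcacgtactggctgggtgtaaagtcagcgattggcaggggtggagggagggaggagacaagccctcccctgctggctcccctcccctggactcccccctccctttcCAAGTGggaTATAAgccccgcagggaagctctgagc

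TATAA began 31 bases before the start of Ppy and 27 bases before that of Pyy. On either strand it was found in 22.7% of 32536 promoters of this length and in neither Npy nor Npy1r. CANNTG, found in 66.2% of promoters on either strand, had 1 match in Pyy, 36 bases before the start, and 0 in Ppy. The motifs do not overlap each other.

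Total counts per library ran from 2642420 to 5099566. The insulin genes Ins1 and Ins2, which mark beta cells, took 48.6% to 64.02% of them. Acinar cell genes, from the exocrine tissue around the islets, took 10.6% of the counts of KO replicate 5, 8.50% of those of KO replicate 6 and 4.16% of those of control replicate 1, against 0.898% to 2.04% in the other 9 libraries. All KO libraries and control replicate 1 have title numbers up to 706 and the other 5 controls have numbers from 805; the sources used here do not say what these numbers mean. Genotype and title number can therefore barely be told apart. Without the libraries of high acinar share, which include control replicate 1, they cannot be told apart at all. Mir17hg, the host transcript of miR-17-92, held 17 counts over the KO and 11 over the control libraries, too few to check the labels. In each of the 66 pairs of libraries the counts differed beyond sampling noise, with a chi-square of at least 2.04 per gene.

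Ppy was on average 1.53-fold higher in KO than in control islets, but the difference did not pass the test across all genes. In CPM, the count relative to the library total, scaled by the TMM factors of edgeR, the KO libraries had a lowest value of 1581, a median of 2784 and a highest value of 3962. The control libraries had 1091, 1519 and 3451. The groups overlapped: 3 controls (replicates 3, 4 and 5, at 1174, 1091 and 1123 CPM) lay below every KO library, whereas control replicate 2, at 3451 CPM, exceeded 4 of the 6 KO libraries. KO libraries averaged 2858 ± 949 CPM and controls 1869 ± 955 CPM (SD, n = 6 each), and the control mean was exceeded in 5 of 6 KO libraries. The log2 fold change came to 0.61 ± 0.25 (SE; edgeR, adjusted p = 0.548 by the Benjamini-Hochberg method over all genes tested).

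Without adjustment, the p for Ppy was 0.0209 (edgeR), and 764 of 9664 tested genes (7.91%) had an unadjusted p under 0.05. The authors' deposited table gives Ppy a log2 fold change of 0.61 with an unadjusted p of 0.0885. In size, 150 of the tested genes had a log2 fold change as far from 0 as that of Ppy or farther. Leaving out control replicate 2 raised the log2 fold change to 0.88 (adjusted p = 0.186, edgeR). A term for title numbers lowered it to 0.19 ± 0.46 (SE, edgeR). In that fit the KO libraries are set against control replicate 1 alone, the 1 control in their range of title numbers, at 2513 CPM. With the 3 libraries of high acinar share left out, the value was 0.61 (adjusted p = 0.338, edgeR). Control replicate 1 is among these 3, so in that fit genotype and title number coincide. In whole islets, a different number of PP cells and a different amount of RNA per cell cannot be told apart.

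Pyy did not pass either, with a log2 fold change closer to 0 than that of Ppy. The difference between the 2 changes, tested as the ratio of their counts further on, did not pass (exact permutation adjusted p = 0.123). The KO libraries had a lowest value of 2581 CPM, a median of 3109 and a highest value of 4118, and the control libraries had 2326, 2578 and 3453. The ranges overlapped over most of their width, and KO replicate 3 and control replicate 2 were the highest of their groups. KO libraries averaged 3160 ± 599 CPM and controls 2777 ± 447 CPM (SD, n = 6 each), and the control mean was exceeded in 4 of 6 KO libraries. The log2 fold change came to 0.19 ± 0.13 (SE; adjusted p = 0.783, edgeR), and with the term for title numbers it was -0.02.

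Npy was close to the limit of counting. Each KO library held 8 to 19 counts and each control 3 to 24, 75 and 80 in all. In CPM, the KO libraries had a lowest value of 1.70, a median of 3.76 and a highest value of 5.50, and the control libraries had 1.13, 3.41 and 5.12. The groups covered almost the same range. KO libraries averaged 3.66 ± 1.603 CPM and controls 3.33 ± 1.65 CPM (SD, n = 6 each), while the fitted log2 fold change had the other sign, -0.03 ± 0.32 (SE; adjusted p = 0.987, edgeR). A difference as small as this one was not detectable at these counts.

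Npy1r, the receptor that neuropeptide Y and peptide YY bind, was likewise rare, with 122 counts over the KO and 140 over the control libraries. The KO libraries had a lowest value of 3.39 CPM, a median of 5.42 and a highest value of 8.02, and the control libraries had 2.60, 5.53 and 10.2. The controls held both the lowest library, replicate 1, and the highest, replicate 6. KO libraries averaged 5.40 ± 1.55 CPM and controls 5.95 ± 2.58 CPM (SD, n = 6 each). The log2 fold change came to -0.18 ± 0.25 (SE; adjusted p = 0.930, edgeR). It was 0.076 without control replicate 6 and 1.05 ± 0.59 (SE, edgeR) with the term for title numbers. That fit leaves control replicate 1 alone against the KO libraries. All 6 KO libraries lay above control replicate 1. Of the 30-base stretches of Npy1r, 4.20% also occur in other genes, so a small part of its reads is uncertain, whereas Ppy, Pyy and Npy share none.

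**Figure D1:**
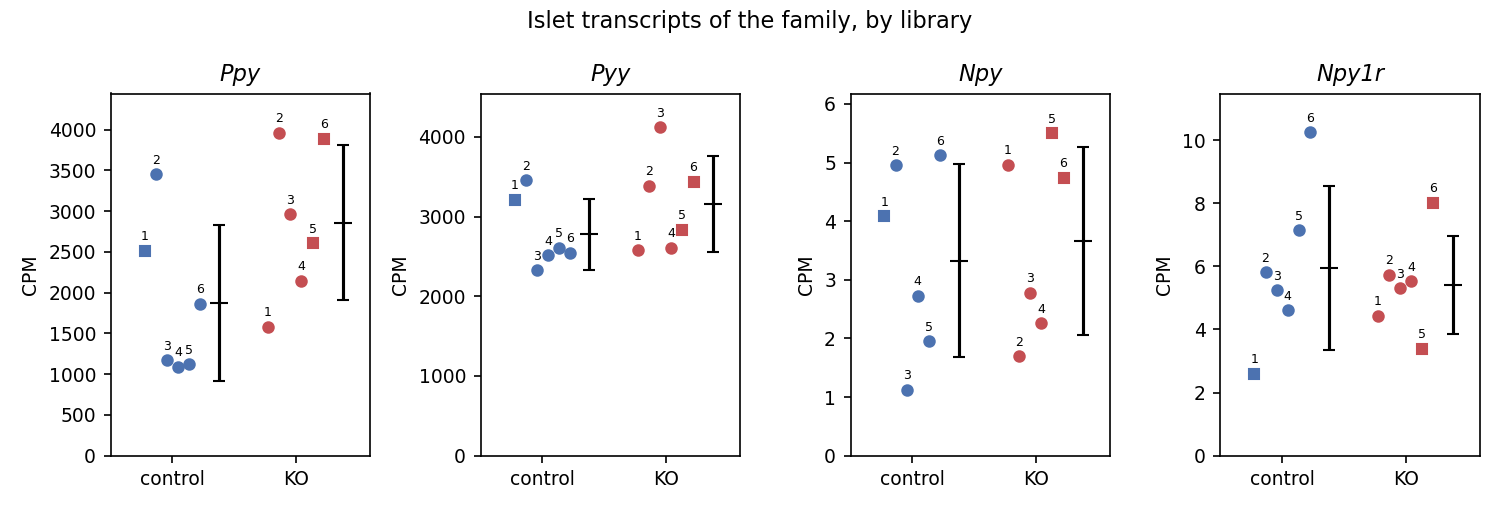
CPM of Ppy, Pyy, Npy and Npy1r in each of the 6 KO and 6 control libraries; numbers are replicate numbers, squares are the 3 libraries of high acinar share and bars are the mean ± SD. KO and control libraries overlap for all 4 genes, and 3 controls lie below every KO library for Ppy.

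Of the 4 genes, 0 passed an adjusted p of 0.05 (edgeR), where 12 of the 9664 genes tested did (0.124%), 7 of them higher (0.0724%) and 5 lower in KO (0.0517%). At an unadjusted p under 0.05 (edgeR) the count was 1 of 4, Ppy, against 764 of the 9664 genes tested (7.91%). KO and control ranges overlapped for all 4, and they did not overlap for 56 of the tested genes (0.579%). The median log2 fold change over all tested genes was 0.00, with 4899 genes above 0 and 4765 below.

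Across the controls, Ppy varied more than most transcripts at 100 CPM or more. Its coefficient of variation (SD over mean) was 51.1% in control and 33.2% in KO libraries, and that of Pyy was 16.1% and 18.9%. Among 528 tested genes at 100 CPM or more, the median coefficient in control libraries was 8.83%, and 26 of these genes exceeded the value of Ppy. For Npy (49.5% in control, 43.9% in KO) and Npy1r (43.5% and 28.7%), the spread includes the counting error of few reads.

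Per kilobase of exon, Ppy and Pyy stood together far above the other members. Pyy was at 5008 ± 949 CPM per kilobase in KO and 4401 ± 709 in control islets (SD, n = 6 each), and Ppy was at 5716 ± 1897 and 3739 ± 1910. Pyy exceeded Ppy in 7 of 12 libraries, by a mean log2 difference of 0.11 (two-sided exact sign-flip p = 0.439), so their order was within the spread, and it was the opposite in KO libraries alone (-0.14, exact p = 0.344). In control libraries alone the difference was 0.37 (exact p = 0.156), and with the length of the longest transcript in place of all exons it was 0.30 (exact p = 0.0669). Npy was at 6.46 ± 2.83 CPM per kilobase in KO and 5.88 ± 2.91 in control islets, and Npy1r at 1.56 ± 0.45 and 1.72 ± 0.75. Ppy exceeded Npy in 12 of 12 libraries, 739-fold on average (exact sign-flip adjusted p = 0.000732 over the 3 steps of the order). Npy exceeded Npy1r in 12 of 12 libraries, 3.64-fold on average, with the same adjusted p. The unadjusted p of 0.000488 behind both is the smallest that 12 libraries can give.

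**Figure D2:**
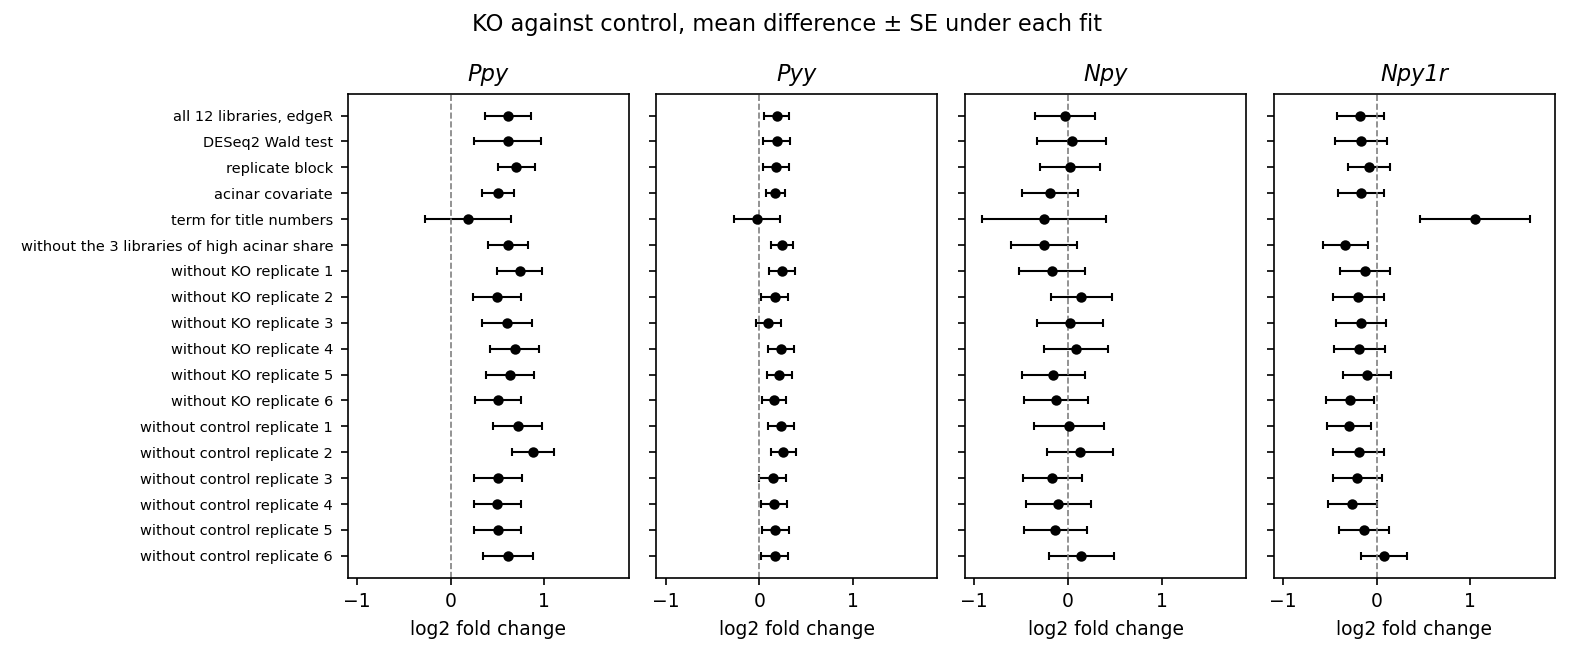
Log2 fold change ± SE of each of the 4 genes, KO over control, in the main test and in alternatives. All values for Ppy are above 0 and range from 0.19 with the title number term to 0.88 without control replicate 2. Pyy changes sign with the title number term, Npy1r with that term and without control replicate 6, and Npy in several alternatives. The title number term leaves control replicate 1 alone against the KO libraries.

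The other Y receptors were not detected. Ppyr1, the older symbol of Npy4r and the preferred receptor of pancreatic polypeptide, had 0 counts in every library, as had Npy2r, Npy5r and Npy6r. A count of 0 allows up to 3 counts, which is 0.588 to 1.14 CPM in a single library and 0.0670 CPM over the 12 libraries together, for counting error only. Npy1r was thus the 1 receptor of the family that could be tested.

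Genes that make the peptides or pass on their signal gave 0 calls (edgeR; 0.124% of all genes tested). The 7 genes of peptide processing, which cut, amidate or inactivate such hormones, were all tested, and their median log2 fold change was 0.01, with 4 above 0 and 3 below. The smallest p was that of Pcsk1, a prohormone convertase, at 0.24 ± 0.09 (SE; adjusted p = 0.49996, edgeR). Of 12 genes of inhibitory G protein signalling, 7 were tested, with 2 above 0, 5 below and a median of -0.11. The smallest p was that of Gnaz, an inhibitory G protein alpha subunit, at -0.20 ± 0.09 (SE; adjusted p = 0.594, edgeR). The potassium channel subunits Kcnj3 and Kcnj9, which such G proteins open, had 0 counts in every library. Kcnj5 and Kcnj6, of the same channel family, were too low to be tested. They had 4 and 4 counts over the KO and 0 and 11 over the control libraries. Of 11 islet transcription factors, 10 were tested, with 2 above 0, 8 below and a median of -0.11. The smallest p was that of Neurod1, a factor of endocrine differentiation, at -0.25 ± 0.07 (SE; adjusted p = 0.299, edgeR).

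The other tested markers of PP cells all had log2 fold changes below 0, and 0 of them passed. Of 10 genes listed, 7 were tested, with a median of -0.11, and of -0.13 over the 5 other than Ppy and Pyy. The smallest p in that list was that of Meis2, a homeobox gene, at -0.21 ± 0.08 (SE; adjusted p = 0.541, edgeR). Slitrk6, a membrane protein, was at -0.13 ± 0.09 and Etv1, a transcription factor, at -0.11 ± 0.11. Sertm1, Id4 and Abcc9 were too low to be tested, with 31, 10 and 14 counts over the KO and 47, 28 and 21 over the control libraries. The list includes genes that other islet cells express as well.

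Of the hormone genes of neighbouring islet cells, Gcg and Sst had log2 fold changes below 0 and the beta cell hormones lay near 0, and 0 passed in edgeR. Glucagon (Gcg), of alpha cells, averaged 5738 ± 558 CPM in KO libraries and 7636 ± 2634 CPM in controls (SD, n = 6 each), with 12410 CPM in control replicate 1. Its log2 fold change came to -0.41 ± 0.16 (SE; adjusted p = 0.518, edgeR), or -0.22 without that control. With the title number term, which sets the KO libraries against that control alone, it was -1.11. Somatostatin (Sst), of delta cells, averaged 2160 ± 282 and 2872 ± 446 CPM, and its log2 fold change came to -0.41 ± 0.12 (SE; adjusted p = 0.299, edgeR). The call for Sst depended on the test: it passed with DESeq2 (adjusted p = 0.0163) and with an acinar covariate in edgeR (adjusted p = 0.036). The authors' deposited table gives Sst an unadjusted p of 3.81e-05. Ins1, Ins2 and Iapp, the islet amyloid gene of beta cells, had log2 fold changes of 0.01, -0.04 and 0.04. Ghrelin (Ghrl), of epsilon cells, was below the filter, with 50 counts over the KO and 43 over the control libraries.

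Within a library, the ratio of Ppy to Gcg does not depend on how libraries are scaled to each other. Ppy counts were 0.312 to 0.756 of Gcg counts in KO and 0.140 to 0.623 in control islets. The KO libraries all lay above the control mean and above control replicate 1, at 0.202, but control replicates 2 and 6 lay within their range. The difference in mean log2 ratio was 1.04, a 2.06-fold change (two-sided exact permutation p = 0.0303, adjusted p = 0.0909 over 3 ratios), and without control replicate 2 it was 1.33 (exact permutation adjusted p = 0.0195). The call thus depended on 1 library. With the 3 libraries of high acinar share left out, the difference was 0.91 (exact permutation adjusted p = 0.310), and genotype and title number coincide there.

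The ratio of Ppy to Pyy was 0.613 to 1.17 in KO and 0.430 to 0.999 in control islets. It exceeded 1 in 2 KO libraries and in 0 controls, control replicate 1 was at 0.782, and 5 of 6 KO libraries were above the mean of the controls. The log2 difference was 0.51 (two-sided exact permutation p = 0.0823, adjusted p = 0.123), and without control replicate 2 it was 0.65 (exact permutation adjusted p = 0.0487). The ratio of Npy to Pyy differed by -0.01 on the log2 scale (exact permutation p = 0.970). The smallest p this design allows is 0.00216.

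**Figure D3:**
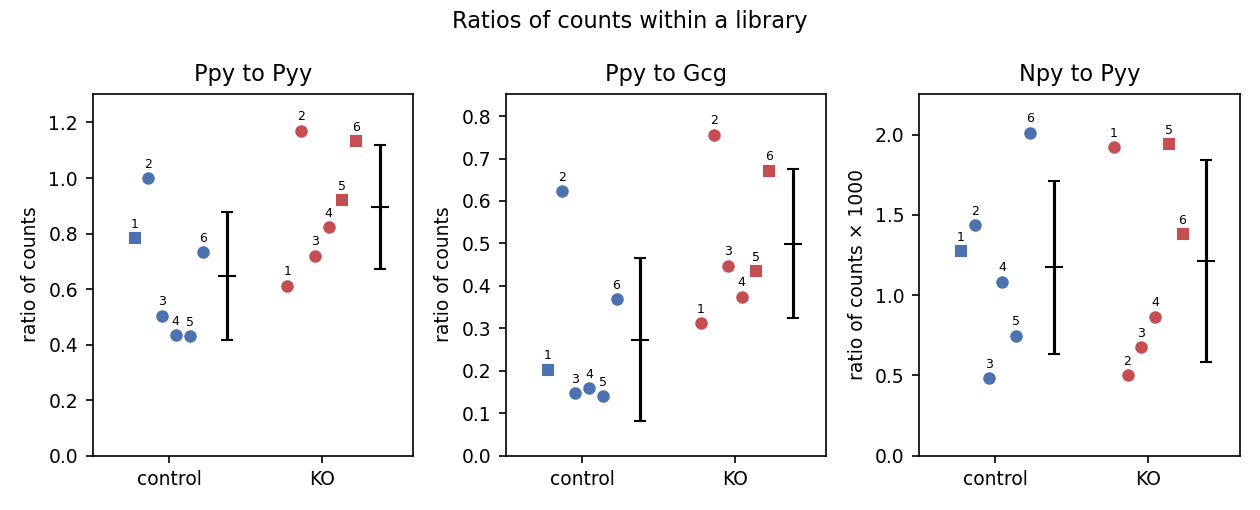
Ratios of counts within each library, Ppy to Pyy, Ppy to Gcg and Npy to Pyy, on linear axes, the last multiplied by the factor on its axis. Numbers are replicate numbers, squares are the 3 libraries of high acinar share and bars are the mean ± SD of the ratios. The KO libraries lie at 0.312 to 0.756 for Ppy to Gcg, and of the controls only replicates 2 and 6 reach that range.

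Ppy and Pyy varied together from library to library. Over 12 libraries Pearson's r of log2 CPM was 0.825 (permutation p = 0.00114, adjusted p = 0.0057 over 5 relations) and Spearman's rho was 0.832 (permutation p = 0.0011). Without the 2 libraries farthest from the median of Ppy, r was 0.838 (permutation p = 0.00274). With the group mean subtracted in each group r was 0.797 (permutation p = 0.00294). In the 9 libraries of low acinar share, where genotype and title number coincide, r was 0.823 (permutation p = 0.00824). In the 7 libraries with title numbers up to 706, 6 of them KO, r was 0.718 (permutation p = 0.0692), and the other title numbers hold 5 controls, under the 6 libraries required here for a correlation.

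**Figure D4:**
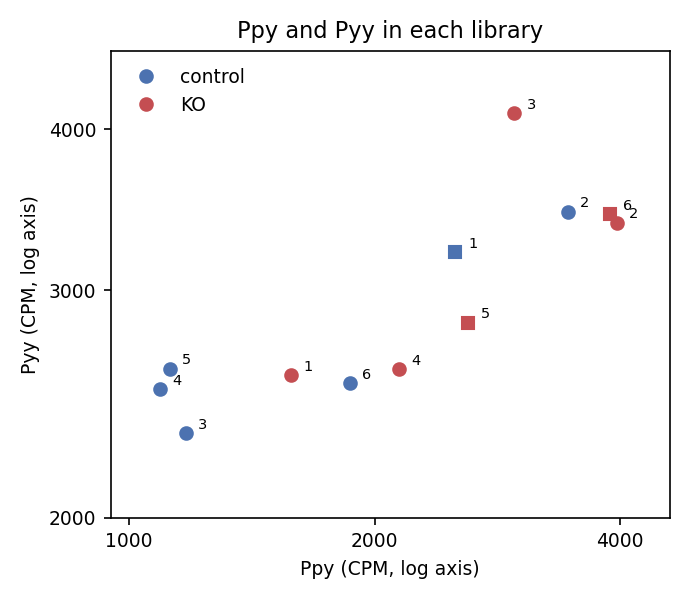
CPM of Pyy against CPM of Ppy in the 12 libraries, on log axes; numbers are replicate numbers and squares are the 3 libraries of high acinar share. The points lie along a rising line (r = 0.825), with control replicates 3, 4 and 5 at the low end.

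Ppy and Sst varied in opposite directions, below the threshold. Pearson's r was -0.672 (permutation p = 0.0209, adjusted p = 0.0522) and Spearman's rho was -0.643 (permutation p = 0.028), and without the 2 libraries farthest from the median of Ppy r was -0.476 (permutation p = 0.163), so the relation rested in part on these libraries. It was -0.499 with group means subtracted (permutation p = 0.0987), -0.783 in the 9 libraries of low acinar share (permutation p = 0.0158) and -0.245 in the 7 libraries with title numbers up to 706 (permutation p = 0.602). Without KO replicate 3, KO replicate 4 or control replicate 1, the adjusted permutation p was 0.0462, 0.0412 and 0.0117. Ppy and Gcg had an r of -0.27 (rho -0.343, permutation p = 0.416 and 0.278), Pyy and Gcg of -0.00774 (rho -0.035, p = 0.982 and 0.922) and Pyy and Sst of -0.256 (rho -0.308, p = 0.418 and 0.332).

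By likeness of pattern, the genes closest to Ppy across the 12 libraries, with group means subtracted, were Rab11fip1 (r = 0.937), Zfp747, Hist3h2a, Mrps10 and Xylt2 (0.838 to 0.822), and Pyy ranked 12 with 0.797. Those closest to Pyy were Kat5 (0.869), Utp23, Map9, Rad17 and D630037F22Rik (0.836 to 0.817), and Ppy ranked 12 there too. For Npy they were Dis3 (0.866), Atl3, Herc4, Abce1 and Nr1d1 (0.839 to 0.817), and for Npy1r Ttc14 (0.937), Cluh, Ift122 and Vwa5a (0.887 to 0.880). These are the highest of 9664 values each, given as a description, and many rest on low counts. Npy ranked 1294 and Npy1r 4198 in likeness to Ppy, with r of 0.36 and 0.05.

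Markers of other cell types that an islet preparation can hold gave 0 calls in every list (edgeR). The acinar list had 14 of 14 tested genes above 0 and a median log2 fold change of 1.20, with a summed level of 10547 to 118105 CPM in KO and 9609 to 43600 in control libraries. Gp2, a zymogen granule gene, had the smallest p there, at 1.55 ± 0.52 (SE; adjusted p = 0.380, edgeR). In the 2 KO libraries of high acinar share Ppy was at 2605 and 3890 CPM, and in the other 4 at 1581 to 3962. Schwann cell markers, of the glia along islet nerves, summed to 16.2 to 18.6 CPM in KO and 21.8 to 24.1 in control libraries, with 2 of 7 genes tested and Cdh19 at 0 counts. Sympathetic neuron markers, of the cells that carry neuropeptide Y, summed to 23.8 to 35.1 and 21.9 to 27.8 CPM. Their defining gene Dbh had 1 count in all, and the smallest p was that of Th, which beta cells can also express, at 0.29 ± 0.16 (SE; adjusted p = 0.683, edgeR). Endothelial markers summed to 102 to 130 CPM in KO and 134 to 142 in control libraries, with means of 120 and 138 CPM. Of the 6 genes, all tested, 2 were above 0 and 4 below. Plvap, of fenestrated capillaries, had the smallest p, at -0.36 ± 0.10 (SE; adjusted p = 0.179, edgeR). It was also the largest part of these sums, with means of 58.2 CPM in KO and 74.6 CPM in control libraries. The part of these cells in the values of Ppy, Pyy, Npy and Npy1r was not tested.

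The remaining lists are given by their medians. The alpha cell list had a median log2 fold change of -0.24 over 7 tested genes and Gcg had its smallest p, and the delta cell list had -0.41 over 3, with the smallest p for Sst. The beta cell list had 0.01 over 9, with Mafa, an insulin gene activator, at -0.19 ± 0.10 (SE; adjusted p = 0.682, edgeR). The immature beta cell list, which holds Npy as a gene of young beta cells, had -0.02 over 4. The ductal list had 0.37 over 4, with Spp1 at 0.44 ± 0.19 (SE; adjusted p = 0.591, edgeR), and the leukocyte list 0.64 over 3, with Cd52 at 1.86 ± 0.62 (SE; adjusted p = 0.376, edgeR), where KO replicate 6 was at 73.7 CPM and the remaining KO libraries at 4.04 to 10.6 CPM. Of the pericyte and enteroendocrine lists, 0 genes were tested, with summed levels of at most 12.9 and 2.63 CPM in any library.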

How the data were processed

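The table held raw read counts per gene, per the file headers, for 6 KO and 6 control islet libraries; extraction was by Trizol and miRNeasy, per the labels' protocols. The submitters' processing notes name TopHat2, HTSeq, DESeq2 1.4.5 and mm9; annotation and strandedness are not given in the sources used here. The authors deposited a log2 fold change and an unadjusted p-value per gene, printed as such, and 12 normalized columns, not used. In 27 rows (0.0447% of counts) the gene name was a date; they were left out.

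Counts of 6 KO against 6 control libraries were tested with edgeR 4.0.16 (R 4.3.3): TMM factors, default filter (minimum count 10, minimum total 15), quasi-likelihood test, Benjamini-Hochberg adjustment, threshold 0.05, 9664 genes. Each SE given with edgeR was worked back as the absolute log2 fold change over the square root of the F statistic. Ratios added 0.5 to each count; log2 CPM used a prior count of 2; correlations used 100000 pairings (scipy 1.17.1). The fit was checked on simulated data. Alternatives were DESeq2 1.42.0, other scalings and filters, a replicate block, terms for acinar share and title number, and each library left out. Sequences came from RefSeq tables and GENCODE on GRCm38, not the build of the files. Named were the 4 members, the receptors, islet hormones, the gene with the smallest p of each list, and the 5 most alike genes per member; some genes of this rule are not reported here. The members and lists were chosen with earlier results of these data known. Intervals and limits cover counting error only. Figures used matplotlib 3.10.9.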

Additional observations from a re-analysis of the deposited data

Results flagged for a closer look

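For 45 items, each examined in KO and in control libraries (90 groups of values), 4 values from 2 libraries stood far from the others of their group. Chance alone gives about 1 in 20 groups, or 4.5 of 90, so the number is at the level of chance. Ghrl, the ghrelin gene of epsilon cells, was at 6.20 CPM in KO replicate 6 against 0.846 to 2.27 CPM in the other KO libraries. Cd52, a lymphocyte surface gene, was at 73.7 CPM in KO replicate 6 against 4.04 to 10.6 CPM in the others. Cluh, which was chosen for a pattern like that of Npy1r, itself highest in KO replicate 6 among the KO libraries, was at 38.6 CPM in KO replicate 6 against 31.3 to 32.6 CPM in the others. Gp2, an acinar granule gene, was at 308 CPM in control replicate 1 against 78.3 to 160 CPM in the other controls. None of Ppy, Pyy, Npy and Npy1r had a library that stood apart in this way. KO replicate 6, the library of the Ghrl and Cd52 values, was the second highest KO library for Ppy, at 3890 CPM, and the highest for Npy1r, at 8.02 CPM.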

How the results depend on the processing

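The 12 calls across all genes were 27 with DESeq2, 22 without a filter and 34 with an acinar covariate. They were 26 at an adjusted p of 0.10, 30 without the 3 libraries of high acinar share and 5 to 17 with 1 library left out. Calls with the title number term are not given, because that fit leaves 1 control against the KO libraries. Leaving out 1 library gave log2 fold changes of 0.50 to 0.88 for Ppy, 0.10 to 0.26 for Pyy, -0.17 to 0.14 for Npy and -0.30 to 0.076 for Npy1r. Npy turned positive with DESeq2 (0.0391), the replicate block (0.0194) and log2 CPM in the exact permutation test (0.15), Pyy turned to -0.0236 and Npy1r to 1.05 with the title number term, and a minimum count of 30 left Npy and Npy1r without a value. Ppy passed in 0 of 25 alternatives. In alternatives added after seeing the data, Sst passed in 2 of 24, and Gcg in 0 of 24. Same-numbered libraries did not deviate together (r from -0.115 to 0.052), and the labels do not say whether the numbers pair samples. With the replicate block 14 genes passed and Ppy was at 0.70 (adjusted p = 0.303, edgeR). The log2 ratios with 1 library left out were 0.40 to 0.65 for Ppy to Pyy, 0.90 to 1.33 for Ppy to Gcg and -0.21 to 0.20 for Npy to Pyy. Correlations with 1 library left out were 0.791 to 0.899 for Ppy and Pyy, -0.584 to -0.181 for Ppy and Gcg, -0.802 to -0.597 for Ppy and Sst, -0.235 to 0.11 for Pyy and Gcg and -0.403 to -0.151 for Pyy and Sst. Pyy and Gcg turned to 0.218 with group means subtracted, 0.0567 without the 2 farthest libraries and 0.238 at title numbers up to 706, and Pyy and Sst to 0.023 and 0.302 in the first and last of these. Ppy and Sst passed without the acinar-rich libraries (-0.783), and Ppy and Pyy did not pass at title numbers up to 706 (0.718), a setting chosen after seeing the data. The log2 step from Pyy to Ppy was 0.04 to 0.17 with 1 library left out and -0.14 in KO libraries alone, and the steps to Npy and Npy1r were 9.37 to 9.63 and 1.74 to 1.98. The causes of these changes were not tested. Counts of 3 to 48 per library limit Npy and Npy1r.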
